A study of Mus musculus with 4 samples.

Results

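The cytosolic RNA sensors and their adaptors were taken as the 10 genes Ddx58 (now also named Rigi), Ifih1, Dhx58, Tlr3, Zbp1, Eif2ak2, Trim25, Mavs, Tbk1 and Adar. Each was found by its symbol among the 53465 gene rows of the count table deposited for B16, a melanoma line of the mouse. The EM-plasma group held 2 libraries, made from cells after 4 h of a treatment that the labels call plasma treated with exosome-mimetic nanovesicles. The control group held 2 libraries labelled only as controls, and the labels name neither a vehicle nor a collection time for them. The labels give no genotype or added agent shared by both groups beyond the cell line, and what kind of plasma was used is not stated. Separate cultures are not mentioned for the libraries of a group, so p-values rest on a spread between samples that may be only technical.

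RNA sensors recognise RNA forms that are rare in healthy cytoplasm, such as long or unprocessed double-stranded RNA. RIG-I (the product of Ddx58) and MDA5 (the product of Ifih1) bind such RNA and join MAVS on the outer mitochondrial membrane, from where the kinase TBK1 activates the factor IRF3 and the transcription of interferon genes. Several sensor genes are themselves induced by interferon, so that the pathway can raise its own components. TLR3 is grouped with the cytosolic sensors here but reads double-stranded RNA in endosomes.

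Ddx58 and Ifih1, the genes of RIG-I and MDA5, fell in EM-plasma-treated cells, each 1.58-fold relative to control cells, while none of the other tested members passed the test in either direction. Of the 10 members 9 passed the filter on low counts and were tested, and 2 of these 9 were called lower and 0 higher by edgeR's quasi-likelihood test at an adjusted p below 0.05. Over all 13664 tested genes 6.21% were called, 2.88% lower and 3.34% higher. The members were chosen with earlier results of these data known, so shares set against all genes are not an unbiased contrast. At an unadjusted p below 0.05 there were 4 of the 9 members, Ddx58, Ifih1, Eif2ak2 and Tlr3, each with a log2 fold change below 0, and 2671 of all 13664 tested genes (19.5%). The median log2 fold change of the tested members was -0.15, against -0.0027 over all tested genes. Both EM-plasma libraries lay below both controls in 6 of the 9 tested members and above them in 1, where 24.8% and 24.3% of all tested genes did so (49.1% in either direction). These are levels in RNA of whole cultures, in which fewer expressing cells and less RNA per cell cannot be told apart.

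The 4 libraries held between 46295133 and 49367932 counts. The 7 melanocyte markers, among them Mitf, Sox10 and Pmel, summed to 11128 and 11329 CPM (counts scaled to a common library total) in EM-plasma libraries and 10988 and 11065 CPM in control libraries, and 0 of them were called. The 10 immune cell markers summed to between 1.43 and 2.07 CPM in every library, and 5 of them, Ptprc included, had 0 reads throughout. The 5 fibroblast markers summed to 6.05 and 5.50 CPM in EM-plasma libraries and 4.31 and 4.60 CPM in control libraries. Only 2 of the 5 passed the filter on low counts and were tested, with 0 called. The part of this difference in the values below was not tested. Endothelial markers summed to at most 0.169 CPM, and erythroid and platelet markers to at most 0.0211 CPM.

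The upstream sequences of the members that fell are shown beside that of Mavs, the adaptor both sensors signal through, because interferon-induced genes often carry paired GAAA elements near their start. RefSeq windows on GRCm38.p6 existed for 8 of the 10 members; Dhx58 and Zbp1 had no window in the table used. The 150 bases directly before the RefSeq start are printed 5′ to 3′ on the strand of the gene. They lie at chr4:40239826-40239975 (minus strand) for Ddx58, chr2:62646256-62646405 (minus strand) for Ifih1 and chr2:131233913-131234062 (plus strand) for Mavs. Capitals mark only a GAAA pair of the form GAAANNGAAA or GAAANGAAA. The Ifih1 sequence holds GAAA on the other strand, printed as tttc, at several places with wider gaps, which were not searched and stay in lower case.
Ddx58: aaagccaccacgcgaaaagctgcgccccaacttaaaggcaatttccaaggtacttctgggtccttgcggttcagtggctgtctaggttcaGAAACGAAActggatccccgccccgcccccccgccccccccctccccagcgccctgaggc
Ifih1: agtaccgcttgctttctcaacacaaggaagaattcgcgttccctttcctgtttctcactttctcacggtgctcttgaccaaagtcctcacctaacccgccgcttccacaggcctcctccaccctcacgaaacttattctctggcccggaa
Mavs: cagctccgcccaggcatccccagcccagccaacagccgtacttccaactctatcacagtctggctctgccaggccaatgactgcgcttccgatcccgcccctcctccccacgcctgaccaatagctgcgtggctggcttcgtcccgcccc

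The full 250 bases before each RefSeq start were searched on both strands. The interferon-stimulated response element core GAAANNGAAA occurred in none of the members' windows, and 2.98% of 32851 windows of the same length held it. A pair with a gap of 1, GAAANGAAA, was added to the search after the Ddx58 sequence had been read. It occurred in Ddx58 from 60 to 52 bases before the start and in no other member, and 2.68% of all windows held it. The STAT element TTCNNNGAA occurred in Eif2ak2 from 178 to 170 bases before the start (7.02% of all windows). A match describes letters in a window only, and GAAA pairs with other gaps were not searched.

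RIG-I, the sensor of RNA with an unprocessed 5′ end, is encoded by Ddx58 (chromosome 4, 40203773 to 40239828 on GRCm38, minus strand, ENSMUSG00000040296). Ddx58 had 981 and 976 counts in EM-plasma libraries, against 1551 and 1653 in control libraries. On the CPM scale the level of Ddx58 was 21.0 ± 0.0527 in EM-plasma-treated cells and 33.2 ± 2.38 in control cells (SD, n = 2 each). Both EM-plasma libraries lay below both controls, and the gap was wider than the distance between libraries of a group. The log2 fold change of Ddx58 was -0.66 (SE 0.073, 95% interval -0.81 to -0.51, edgeR adjusted p = 5.07e-07), a fall of 36.7%. Its call held in each fit that left out a library (adjusted p up to 0.0415) and ended where no filter on low counts was used (adjusted p = 0.0801; range over 11 alternatives 7.58e-19 to 0.0801).

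MDA5, the sensor of long double-stranded RNA, is encoded by Ifih1 (chromosome 2, 62595798 to 62646255, minus strand, ENSMUSG00000026896). Ifih1 had 287 and 307 counts in EM-plasma libraries, against 484 and 489 in control libraries. The level of Ifih1 was 6.38 ± 0.311 CPM in EM-plasma-treated cells and 10.1 ± 0.342 CPM in control cells (SD, n = 2 each). The groups did not overlap. The log2 fold change of Ifih1 was -0.66 (SE 0.12, 95% interval -0.90 to -0.42, edgeR adjusted p = 0.000406), a fall of 36.7% as well. Its call ended without control 2 (adjusted p = 0.105), which left 1 member called, and where no filter was used (adjusted p = 0.111; range over 11 alternatives 7.90e-07 to 0.111). Ranked from the most negative log2 fold change over all 13664 tested genes, Ddx58 stood at place 196 and Ifih1 at place 197.

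**Figure D1:**
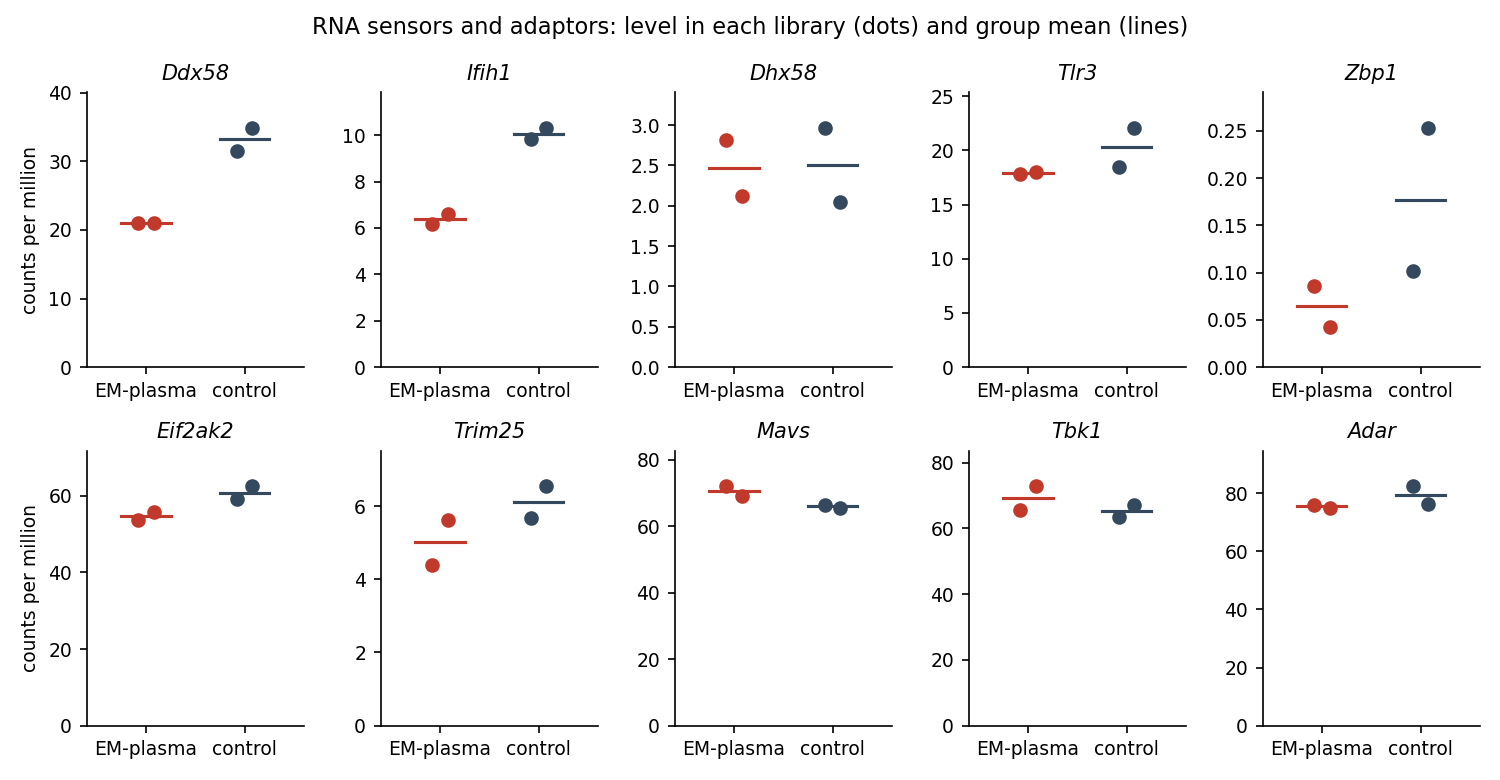
Level of each of the 10 members in CPM (vertical axis from 0, scaled per gene), with 1 dot per library and a line at the group mean, EM-plasma left and control right. In Ddx58 the EM-plasma libraries sit at 21.0 and 21.0, below the controls at 31.5 and 34.9, and in Dhx58 the libraries of the groups overlap.

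The levels of the RIG-I and MDA5 transcripts stood in a like ratio in all libraries. Per kilobase of exon, Ddx58 was 3.96 and 3.68 times the level of Ifih1 in EM-plasma libraries, against 3.71 and 3.92 times in control libraries, and the groups overlapped. Relative to Mavs, Ddx58 stood at 0.139 and 0.144 per length in EM-plasma libraries and at 0.225 and 0.252 in control libraries. Ifih1 relative to Mavs was 0.0350 and 0.0392 in EM-plasma libraries and 0.0606 and 0.0644 in control libraries. In both of these ratios the groups did not overlap. The ratios largely restate the fold changes of Ddx58, Ifih1 and Mavs, and no test was run on a ratio.

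The genes whose profile over the 4 libraries was most like that of Ddx58 were Ifit3, Mylip and Ifih1, in that order, by the root mean square distance between log2(CPM + 0.5) values centred on each gene's mean. The distances were 0.040, 0.040 and 0.046 on the log2 scale. Ifih1 thus stood at place 3 among 13663 other genes. The distances were below the standard errors of the log2 fold change, 0.073 for Ddx58 and 0.12 for Ifih1, so this place is not resolved. The log2 fold changes of Ifit3, Mylip and Ifih1 were -0.66, -0.64 and -0.66, so a like profile partly restates a like fold change. Ifit3 is an interferon-induced gene, and Mylip encodes a ubiquitin ligase that degrades the LDL receptor.

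LGP2, the third RIG-I-like receptor, lacks the signalling domain of RIG-I and MDA5 and modulates them, and is encoded by Dhx58 (chromosome 11, 100694884 to 100704271, minus strand, ENSMUSG00000017830). Dhx58 had 131 and 99 counts in EM-plasma libraries and 146 and 97 in control libraries. The groups overlapped, and libraries of the same group lay further apart than the group means. The log2 fold change of Dhx58 was -0.024 with a 95% interval from -0.48 to 0.43 (adjusted p = 0.970), which at this depth spans changes in either direction, from 0.719-fold to 1.35-fold. An antisense transcript, Dhx58os, shares 141 exon bases with it and had 0 to 6 counts in a library.

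TLR3, the endosomal receptor of double-stranded RNA (chromosome 8, 45395665 to 45411080, minus strand, ENSMUSG00000031639), had 831 and 838 counts in EM-plasma libraries and 910 and 1046 in control libraries. The level of Tlr3 was 17.9 ± 0.126 CPM in EM-plasma-treated cells and 20.3 ± 2.53 CPM in control cells (SD, n = 2 each). The EM-plasma libraries lay just below control 1 and further below control 2. The log2 fold change was -0.18 (95% interval -0.36 to -0.00031, adjusted p = 0.254), which did not pass, and it was -0.042 without control 2 and -0.30 without control 1.

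PKR, the kinase that halts translation initiation on binding double-stranded RNA, is encoded by Eif2ak2 (chromosome 17, 78852564 to 78882573, minus strand, ENSMUSG00000024079). Its level was 53.7 and 55.8 CPM in EM-plasma libraries and 59.0 and 62.4 CPM in control libraries. The groups did not overlap, but the log2 fold change of Eif2ak2 was small at -0.15 (95% interval -0.27 to -0.027) and did not pass the test (adjusted p = 0.145). The lincRNA Gm26637 on the opposite strand shares 174 exon bases with Eif2ak2 and had 13 to 16 counts in a library, against 2503 to 2960 for Eif2ak2.

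ZBP1, which binds Z-form nucleic acid and can start necroptosis through RIPK3, was barely detected. Zbp1 (chromosome 2, 173206612 to 173218923, minus strand, ENSMUSG00000027514) had 4 and 2 counts in EM-plasma libraries and 5 and 12 in control libraries. It did not pass the filter, and no fold change is given. Ripk3, the gene of its partner kinase, had 1 and 0 counts in EM-plasma libraries and 1 and 0 in control libraries.

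The adaptors and enzymes that act with the sensors, Mavs, Tbk1, Trim25 and Adar, gave 0 calls among 4 tested genes with edgeR's quasi-likelihood test. At an unadjusted p below 0.05 there were also 0. Over all tested genes these shares were 6.21% and 19.5%, so 4 genes are too few to set adaptors against sensors. The alternatives that kept all 4 libraries also called 0 of the 4 genes. Mavs (chromosome 2, 131234063 to 131248025, plus strand, ENSMUSG00000037523) was at 72.0 and 69.0 CPM in EM-plasma libraries and 66.4 and 65.6 CPM in control libraries. It was the tested member whose EM-plasma libraries both lay above both controls. Its log2 fold change of 0.094 had a 95% interval from -0.022 to 0.21 (adjusted p = 0.384).

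Tbk1, the gene of the kinase that phosphorylates IRF3 (chromosome 10, 121546455 to 121586787, minus strand, ENSMUSG00000020115), was at 65.6 and 72.8 CPM in EM-plasma libraries and 63.5 and 67.2 CPM in control libraries. The groups overlapped, and the 95% interval of the log2 fold change ran from -0.042 to 0.21 (adjusted p = 0.492). An increase of Tbk1 above 1.16-fold or a fall below 0.972-fold thus lay outside that interval.

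TRIM25 is a ubiquitin ligase linked to RIG-I activation (Trim25, chromosome 11, 88999376 to 89020293, plus strand, ENSMUSG00000000275). It had 205 and 262 counts in EM-plasma libraries and 279 and 310 in control libraries. On the CPM scale the higher EM-plasma library, at 5.63, lay just below the lower control, at 5.67. The log2 fold change of Trim25 was -0.28 (SE 0.15, 95% interval -0.58 to 0.016, adjusted p = 0.289), which did not pass. It was -0.12 without EM-plasma 1 and -0.47 without EM-plasma 2.

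ADAR edits adenosine to inosine in double-stranded RNA and so marks cellular RNA as self (Adar, chromosome 3, 89715022 to 89753446, plus strand, ENSMUSG00000027951). Its level was 76.0 and 75.0 CPM in EM-plasma libraries and 82.3 and 76.4 CPM in control libraries. The EM-plasma libraries lay close to control 2 and below control 1, and the log2 fold change was -0.073 (95% interval -0.19 to 0.043, adjusted p = 0.527). Chrnb2, on the opposite strand, shares 1365 of the 8118 exon bases of Adar and had 165 and 160 counts in EM-plasma libraries and 174 and 89 in control libraries. Adar has several transcripts, which counts per gene do not separate.

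**Figure D2:**
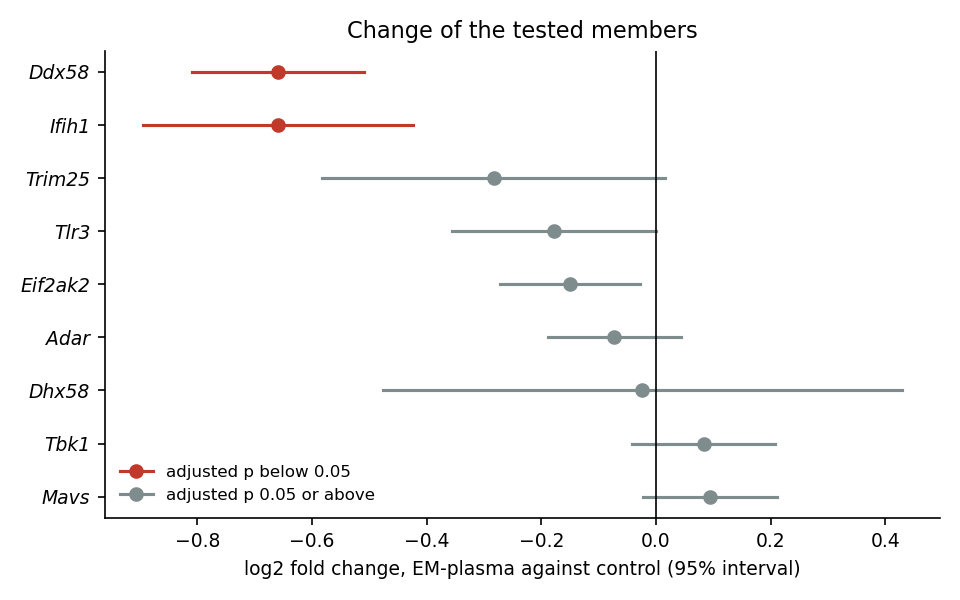
Log2 fold change of the 9 tested members, EM-plasma against control (horizontal axis; points are fitted values, bars 95% intervals), from the most negative at the top. The intervals of Ddx58 (-0.81 to -0.51) and Ifih1 (-0.90 to -0.42) lie wholly below 0. So do those of Eif2ak2 (-0.27 to -0.027) and Tlr3 (-0.36 to -0.00031), which did not pass the test after adjustment. The interval of Dhx58 is wide, from -0.48 to 0.43.

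Levels of different genes were compared as RPKM, the CPM divided by the annotated exon length in kilobases. Mavs and Tbk1 were the most abundant members in both groups, Mavs at 21.1 ± 0.639 RPKM in EM-plasma-treated cells and 19.7 ± 0.181 RPKM in control cells (SD, n = 2 each). Tbk1 followed at 17.7 ± 1.29 RPKM in EM-plasma-treated cells and 16.7 ± 0.671 RPKM in control cells. Eif2ak2 and Adar came next, at 10.7 and 9.30 RPKM in EM-plasma-treated cells and 11.9 and 9.78 RPKM in control cells. Ddx58 and Tlr3 stood below these. Ddx58 was at 2.98 ± 0.00748 RPKM in EM-plasma-treated cells, below Tlr3 at 3.44 ± 0.0242 RPKM. In control cells Ddx58 was at 4.71 ± 0.338 RPKM, above Tlr3 at 3.89 ± 0.486 RPKM. The ranges of these neighbours did not overlap in either group, and the difference in order was not tested.

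Trim25, Ifih1 and Dhx58 formed the low end of the detected members. In EM-plasma-treated cells they were at 0.871, 0.781 and 0.754 RPKM, and the ranges of neighbours overlapped. In control cells Ifih1 was at 1.23, Trim25 at 1.06 and Dhx58 at 0.766 RPKM, with no overlap between neighbours. Zbp1 was at 0.0182 RPKM in EM-plasma-treated cells and 0.0503 RPKM in control cells.

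**Figure D3:**
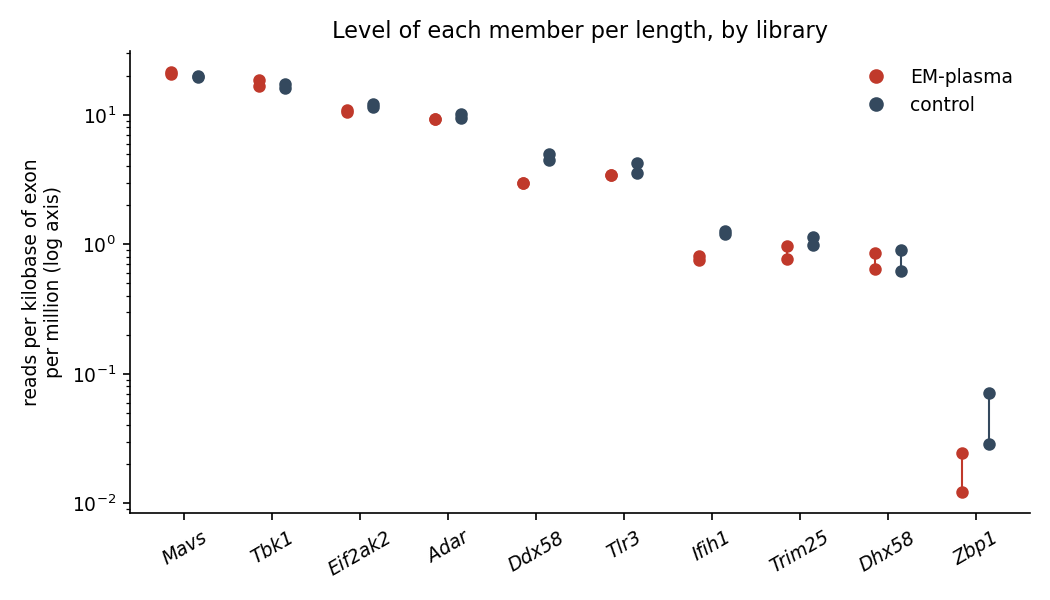
Level per length of the 10 members in each library (vertical log axis, RPKM; 1 dot per library, EM-plasma left of control), ordered by the control mean. The members run from Mavs near 20 down to Zbp1 below 0.1, and the EM-plasma dots of Ddx58 (2.98 and 2.97) lie below its control dots (4.47 and 4.95).

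Other genes of RNA sensing were described in 8 lists by role, holding 132 genes outside the 10 members. Of these 108 were tested and 7 were called (6.48%, against 6.21% of all tested genes). The 6 called lower made 5.56%, against 2.88% of all tested genes, and the 1 called higher 0.926%, against 3.34%. The lists were chosen with earlier results of these data known, so these shares are not an unbiased contrast. The median log2 fold change of the 108 was -0.031. With control 1 removed 2 of them were called, with control 2 removed 0, and with EM-plasma 1 or EM-plasma 2 removed 3 each. The 6 called lower were Ifit1, Oas1c, Ifit3, Irf7, Irf1 and Isg15.

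Among 15 further RNA sensors and RNA-binding receptors 2 fell and 0 rose, with a median log2 fold change of -0.084. The share called lower was 13.3%, against 2.88% of all tested genes. Shares of lists this small rest on few genes. Ifit1, whose product binds RNA lacking a mature cap, was at 7.08 and 7.48 CPM in EM-plasma libraries and 11.4 and 13.1 CPM in control libraries (log2 fold change -0.75, adjusted p = 3.80e-05). Oas1c, of the 2′-5′ oligoadenylate synthetase family, was at 1.54 and 1.16 CPM in EM-plasma libraries and 2.78 and 2.05 CPM in control libraries (log2 fold change -0.84, adjusted p = 0.0455). The Ifit1 call ended without control 2 (adjusted p = 0.0860; range over 11 alternatives 1.91e-10 to 0.115). That of Oas1c ended in 6 of 11 alternatives (adjusted p from 0.0130 to 0.361). Ifit and Oas genes have close copies in the genome that can share reads.

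Of 13 further activators of RIG-I and MDA5 0 passed the edgeR test, against 6.21% of all tested genes. An unadjusted p below 0.05 was found for 2 of them (15.4%, against 19.5% of all tested genes). The most abundant, the 14-3-3 gene Ywhae, was at 886 ± 1.65 CPM in EM-plasma-treated cells and 923 ± 37.0 CPM in control cells (SD, n = 2 each). Of 13 further adaptors 1 fell (7.69%, against 2.88% of all tested genes), Ifit3, which links MAVS to TBK1. Ifit3 was at 6.03 and 5.56 CPM in EM-plasma libraries and 8.80 and 9.53 CPM in control libraries (log2 fold change -0.66, adjusted p = 0.000729; 0.128 without control 2, range over 11 alternatives 3.38e-06 to 0.143). Sting1 and Trim4 were not analysed here.

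Of 16 further kinases and transcription factors 2 fell (12.5%, against 2.88% of all tested genes) and 0 rose. Irf7, the interferon-inducible factor that amplifies interferon transcription, had 4 and 3 counts in EM-plasma libraries and 37 and 14 in control libraries (log2 fold change -2.76, SE 0.66, adjusted p = 0.00953). Its call ended in each of the 4 fits with a library removed (adjusted p 0.0674 to 0.185). Irf1 was at 18.4 and 17.6 CPM in EM-plasma libraries and 22.0 and 21.5 CPM in control libraries (log2 fold change -0.27, adjusted p = 0.0361), and its call likewise ended in all 4 (adjusted p 0.0942 to 0.445). With DESeq2 on all 4 libraries Irf1 was not called (adjusted p = 0.121), and Irf7 was given no adjusted p. Irf3, the factor that TBK1 activates, was at 42.1 and 43.6 CPM in EM-plasma libraries and 40.9 and 39.4 CPM in control libraries, and did not pass the edgeR test (adjusted p = 0.451).

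Of 24 inhibitors of the pathway 1 fell and 1 rose (4.17% each, against 2.88% lower and 3.34% higher of all tested genes). Isg15, a ubiquitin-like modifier induced by interferon, was at 3.09 and 3.72 CPM in EM-plasma libraries and 5.32 and 4.77 CPM in control libraries (log2 fold change -0.57, adjusted p = 0.0309). Smurf1, a ubiquitin ligase, was at 117 and 112 CPM in EM-plasma libraries and 104 and 97.0 CPM in control libraries (log2 fold change 0.19, adjusted p = 0.0253). With DESeq2 Isg15 was not called (adjusted p = 0.123), while Smurf1 was (adjusted p = 0.0273). The Smurf1 call ended in all 4 fits without a library (adjusted p 0.0504 to 0.559). That of Isg15 ended in 3 of these 4 fits, all but the one without EM-plasma 2 (adjusted p = 0.0311 there, and from 0.0071 to 0.351 over 11 alternatives).

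Of 19 further genes of self-RNA editing, decay and modification 0 passed, with 0 at an unadjusted p below 0.05. Over all tested genes these shares were 6.21% and 19.5%. The most abundant was Abce1, an inhibitor of RNase L, at 309 ± 5.12 CPM in EM-plasma-treated cells and 315 ± 16.2 CPM in control cells (SD, n = 2 each). Of 8 further genes around eIF2α, the target of PKR, 0 passed and 2 had an unadjusted p below 0.05. Dnajc3, whose product inhibits PKR, was the most abundant at 271 ± 3.74 CPM in EM-plasma-treated cells and 291 ± 10.1 CPM in control cells (adjusted p = 0.182). The other eIF2α kinase genes Eif2ak1, Eif2ak3 and Eif2ak4 had adjusted p-values of 0.432, 0.850 and 0.586.

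Interferon genes, the products of the pathway, were almost without reads: 9 of 11 listed genes, Ifnb1 included, had 0 counts in every library. At this depth 0 counts allow a level of up to 3 counts in a library, which is 0.0644 CPM in either EM-plasma library and at most 0.0633 CPM in a control library. The most abundant was Ifnz, with 0 and 1 counts in EM-plasma libraries and 2 and 4 in control libraries. Counts of interferon genes with close copies are uncertain.

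**Figure D4:**
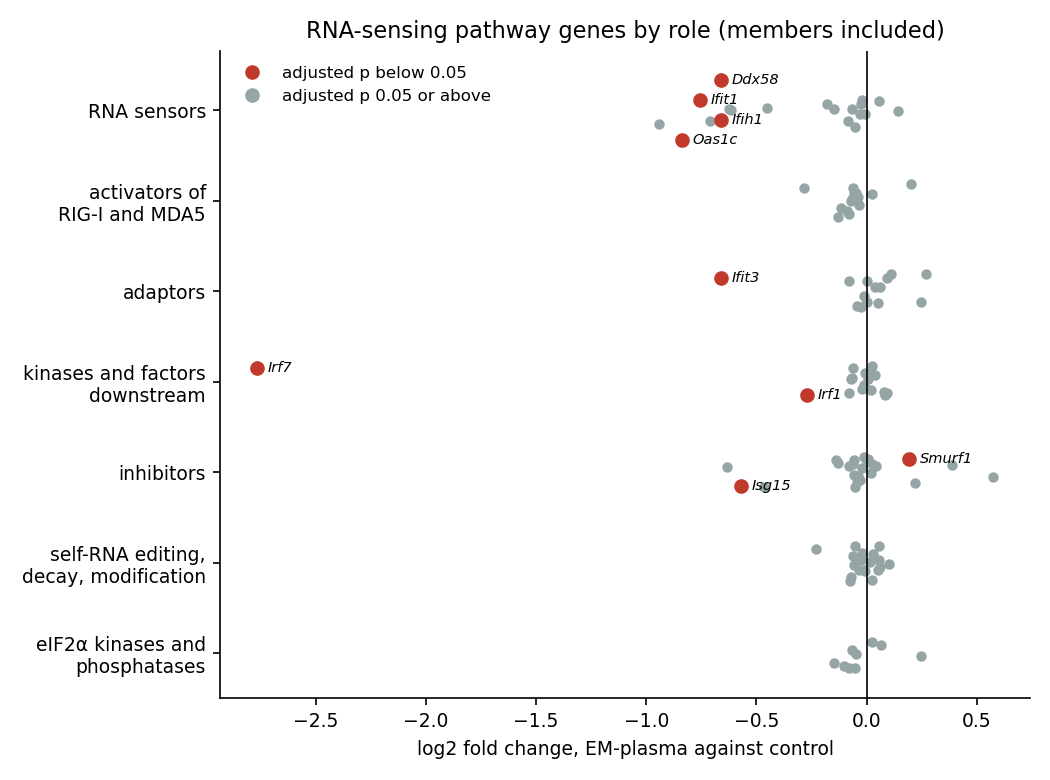
Log2 fold change of each tested gene of 7 lists by role, the members included (horizontal axis, EM-plasma against control; 1 dot per gene, vertical scatter within a list has no meaning; larger dots had an adjusted p below 0.05 and carry names). The named dots lie left of 0 apart from Smurf1 at 0.19. In the sensor list unnamed dots also lie left of 0, and none of these passed the test. Those furthest left include Oas2, Oas1b and Oasl2, which had low counts. The interferon gene list had no tested gene and is not drawn.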

How the data were processed

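Poly(A) RNA was sequenced from stranded libraries, per the labels' protocols. CASAVA, TopHat2 2.1.1, HTSeq, edgeR and the build GRCm38 are named, without roles, in the submitters' processing notes. For the counting, the sources used here give neither annotation release nor strand setting. The authors deposited whole-number counts per gene, used in all tests, and a scaled signal per library that equalled the count times 1 constant and served to check the columns.

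Symbols, positions and exon lengths came from GENCODE M21 (GRCm38), which held 53360 of 53465 rows, and promoters from RefSeq. Genes kept by filterByExpr were scaled by TMM and tested with edgeR 4.0.16 (R 4.3.3), quasi-likelihood with the legacy dispersion, on group alone. Two-sided p-values were adjusted by Benjamini-Hochberg over 13664 genes. The standard error is |log2 fold change| / √F, and 95% intervals rest on the fit's degrees of freedom (prior 25.5). With 2 libraries a group the median standard error was 0.070 on the log2 scale. CPM uses TMM-scaled totals, and RPKM divides it by the union of exons. Limits on counts of 0 cover counting error only.

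Named genes were the 10 members, called genes of each list (up to 4), the most abundant gene of a list with none, and the 3 profiles nearest to the member with the smallest adjusted p. Irf3, Ripk3 and the other eIF2α kinases were named after their values were seen. Members and lists were chosen with earlier results of these data known. Alternatives were DESeq2 1.42.0, RLE scaling, no filter, a replicate block, the newer dispersion, limma-voom (limma 3.58.1), edgeR's exact test and leaving out each library. Overlapping or near-identical genes can share reads.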

Additional observations from a re-analysis of the deposited data

How the results depend on the processing

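Members called lower stayed at 2 or rose to 3 in every alternative but no filter and without control 2. Without a filter 0 members, 0 other pathway genes and 14 of all genes (1 lower, 13 higher) were called. That fit tested 22906 genes and its prior degrees of freedom were 3.36, against 25.5. DESeq2 called 3 other pathway genes, 2 lower, and 557 of all genes, 277 higher. The exact test called 2 other pathway genes higher. Leaving out 1 library gave 1 to 2 members, 0 to 3 other pathway genes (0 to 3 lower, 0 to 0 higher) and 71 to 547 of all genes (23 to 289 lower, 48 to 258 higher). The spread was then also estimated anew: total degrees of freedom were 5.27 to 5.71 without a control, while the prior was infinite, with the variance treated as known, without an EM-plasma library and with the replicate block. A lone library is assumed to vary like the other group, yet the spreads within the groups differed. The chi-square of counts per degree of freedom was 2.84 between the EM-plasma libraries and 7.63 between the control libraries. With the replicate block, edgeR called 14 other pathway genes (11 lower, 3 higher) and 1683 of all genes (851 lower, 832 higher). Eif2ak2 then passed as well (adjusted p = 0.0494; range over 11 alternatives 0.0494 to 0.804). No label says that same-numbered libraries share a culture or day. Their deviations correlated at 0.078 across genes, and whether they share either was not tested. The log2 fold change of Dhx58 changed sign between fits without a library (-0.26 to 0.27), as did that of Abce1 (-0.080 to 0.032). Over the same fits it ran from 0.0055 to 0.16 for Tbk1, 0.062 to 0.12 for Mavs and -0.12 to -0.021 for Adar. The cause of these differences was not tested. All other tested members kept their direction in all 11 alternatives.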
